A study of Mus musculus with 8 samples.

Results

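The comparison set heavy polysomal RNA against total cytoplasmic RNA in knock-in (KI) mouse embryonic fibroblasts whose eIF4E cannot be phosphorylated. It rests on 4 of the series' 8 arrays, chosen by title: 2 arrays of polysomal RNA and 2 of total RNA, paired by replicate number, across all 23978 probes with a gene symbol. The other 4 arrays hold the same pair of RNA types from wild-type (WT) fibroblasts, and they served to estimate the spread and to ask whether the KI differences were particular to the KI line. The KI and the WT cells were each 1 immortalised line derived from embryos at day 14.5 by passaging, and both grew in DMEM with 10% fetal bovine serum with no other treatment named in the labels. Polysomal RNA here means mRNA bound by more than 3 ribosomes. Total RNA came from the cytoplasm of the same culture, and 250 ng of each RNA went into 1 round of biotin labelling. The replicates were 2 independent experiments on 1 pair of lines, so the p-values measure the spread between experiments on those lines, and genotype and line cannot be told apart.

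eIF4E is the protein that binds the 5′ cap of an mRNA and, through eIF4G, brings the mRNA to the small ribosomal subunit. The MNK kinases, which are themselves bound to eIF4G, phosphorylate eIF4E, and the KI allele removes that modification. An mRNA that is initiated often carries several ribosomes at a time and sediments with the heavy polysomes, while an mRNA that is stored, repressed or too short for many ribosomes sediments with lighter fractions. mRNAs that begin with a cytidine followed by a run of pyrimidines, the terminal oligopyrimidine (TOP) mRNAs, encode ribosomal proteins and elongation factors and move into and out of polysomes together when growth signals change.

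Each gene was read from its brightest probe on a scale taken as log2, and a difference is polysomal minus total RNA, averaged over the 2 KI cultures. Because equal amounts of the RNAs were labelled, a difference compares a transcript's share of polysomal RNA with its share of total RNA and does not count ribosomes. Of 16593 genes with a symbol probe, 8832 were bright enough to test. The median signal of an array was 7.69 to 7.73, close to the lowest values of a range that ended at 15.80, and a gene near that level has no measurable amount. Across all probes, taken as a description since probes are no replicates, the correlation was 0.987 between the KI polysomal arrays and 0.975 between the KI total arrays, against 0.917 and 0.886 between polysomal and total RNA of cultures 1 and 2. Total RNA of the KI and WT lines correlated at 0.970 for replicate 1 and 0.982 for replicate 2, at or above the 0.970 between the WT total arrays, so total arrays grouped by number as well as by line, and a fit of the 4 KI arrays alone is given beside the count that it touches.

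The Eif4e probe read 7.76 and 7.76 in KI polysomal RNA and 7.67 and 7.76 in KI total RNA, which is the bottom of the range. It cannot show the mutation, since a point change leaves the transcript in place, and it gave no measurable level of the mRNA in KI. In WT the same probe read 8.66 and 8.44 in polysomal RNA, against 7.82 and 7.76 in total RNA. Its limma test of KI minus WT gave an unadjusted p of 0.00603 and an adjusted p of 0.9997. The fibroblast labels were checked against markers. Of 13 fibroblast markers on the array, 8 read above 9 on all 4 KI arrays, among them Vim, Sparc, Col1a1 and Thy1, while Lum and Postn were at the bottom. None of 5 epithelial, 5 endothelial and 4 skeletal muscle markers did so. The muscle marker Acta1 came close, at 8.93 and 10.15 in KI polysomal RNA and 9.26 and 10.71 in KI total RNA. Among 5 haematopoietic markers Cd14 read above 9 on all 4 KI arrays, with Ptprc and Adgre1 at the bottom, and among 5 neural markers Nes did.

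In KI cells, 1966 of the 8832 tested genes were higher in polysomal than in total RNA (22.3%) and 1564 were lower (17.7%), at an adjusted p below 0.05 in a limma fit that kept each culture as a block. Together that is 3530 genes, 40.0% of those tested. The differences were large: 951 of the higher genes differed by at least 1 on the log2 scale and 183 by at least 2, while 603 of the lower genes differed by 1 or more and 78 by 2 or more. The median difference was 0.98 among the higher genes, -0.86 among the lower genes and 0.02 over all tested genes, with quartiles at -0.36 and 0.42. The KI polysomal and total arrays did not overlap for 6378 genes (72.2%), among them 3449 of the 3530. All 3530 had the same sign in both cultures, beside 83.9% of all tested genes. The 3530 were selected by a test on these same pairs, which opposite signs could hardly pass, so this is no separate evidence. A fit of the KI arrays alone called 4176 genes, and 3490 of the 3530 passed again.

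With a single KI pair the test loses its spread within KI, since the lone pair is then assumed to vary like the WT pairs. Without KI replicate 1, and likewise without KI replicate 2, 0 genes passed limma's adjusted p, with 3136 and 2450 at an unadjusted p below 0.05, beside 4435 (50.2%) with both pairs. Among the higher genes, 198 had mean KI total signal at or below the level that separates dim from measured probes, and 8 lower genes had KI polysomal signal there, so those differences are understated.

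**Figure D1:**
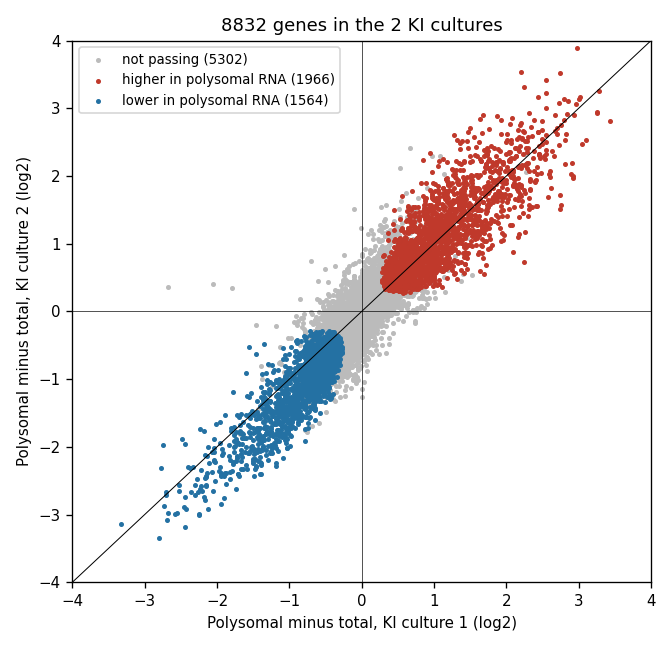
The polysomal minus total difference of each of 8832 genes in KI culture 1 (horizontal, log2) and in KI culture 2 (vertical, log2), with the line of equality. Red points are the 1966 genes higher in polysomal RNA, blue the 1564 lower and grey those that did not pass. The points follow the diagonal, and the passing genes lie in the upper right and lower left.

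The difference in KI culture 1 followed the difference in KI culture 2 across genes, with Pearson's r of 0.926 and Spearman's rho of 0.914. These values are over genes, which are not independent replicates, and no array is shared between the cultures.

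The 15 genes with the largest rise in polysomal RNA encode, among others, proteins of RNA processing, translation and protein folding. Oxct1, the mitochondrial transferase that activates ketone bodies, led with 11.82 and 12.21 in KI polysomal RNA, against 8.85 and 8.32 in KI total RNA. The lowest polysomal array stood far above the highest total array, and the difference was 3.43 (SE 0.32, limma adjusted p = 0.00514), or 10.8-fold. Next came Luc7l3, a splicing-associated protein rich in serine and arginine, with 11.79 and 12.20 in KI polysomal RNA, against 8.51 and 8.94 in KI total RNA. Its difference was 3.27 (SE 0.13), although its 2 other probes read 1.52 and 1.59. G3bp2, an RNA-binding protein of stress granules, had 12.13 and 12.39 in KI polysomal RNA, against 9.40 and 8.87 in KI total RNA.

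Eif5, which makes eIF2 hydrolyse its GTP when the start codon is found, had 12.62 and 13.19 in KI polysomal RNA, against 9.19 and 10.38 in KI total RNA. The 2 total arrays of Eif5 lay 1 log2 unit or more apart, yet neither came near the polysomal arrays. Srsf1, a splicing regulator of the SR family, read 13.06 and 12.93 in KI polysomal RNA, against 9.81 and 9.98 in KI total RNA, and its second probe gave a close difference of 3.03. Nap1l1, a histone chaperone for nucleosome assembly whose mRNA begins with a TOP sequence, read 12.39 and 12.60 in KI polysomal RNA, against 9.38 and 9.43 in KI total RNA. The other probe of Nap1l1 gave 1.01. Its KI total RNA read 7.66 and 7.76, the bottom of the range, so that difference may be understated.

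Protein folding was represented by Pdia3, a disulfide isomerase of the endoplasmic reticulum (ER), and Hspa9, the mitochondrial Hsp70. Pdia3 read 12.81 and 13.08 in KI polysomal RNA, against 9.81 and 9.94 in KI total RNA. Hspa9 read 13.82 and 14.06 in KI polysomal RNA, against 10.99 and 11.14 in KI total RNA. The other genes of the 15 were Cdv3 (3.09), the snoRNP core protein Nop58 (3.02), the actin-depolymerising factor Dstn (2.99), the ubiquitin ligase Rnf6 (2.99), the calcium-binding ER protein Calu (2.97), the splicing factor Hnrnph1 (2.92) and Wwc2 (2.90), where each value is a log2 difference. Other probes of the same gene passed the filter for 11 of the 15. Their differences were all positive but often smaller, as for Hnrnph1 (0.38 to 2.71) and Calu (0.68 to 2.68). For both genes the smallest came from a probe with KI total RNA near the bottom of the range.

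The 15 genes with the largest fall encode proteins of mitochondria, membranes, redox control and the cytoskeleton, among others. Tmsb10, a thymosin that sequesters actin monomers, had 10.07 and 10.03 in KI polysomal RNA, against 13.40 and 13.17 in KI total RNA. The difference was -3.24 (SE 0.15, limma adjusted p = 0.00327), or 9.42-fold lower. That adjusted p was the smallest over all genes, but other genes shared it, among them Nop58 and Ndufa3. The other Tmsb10 probes gave -3.06 and -1.48, the latter with KI polysomal RNA at 7.78 and 7.73, near the bottom of the range. Gpx4, the selenoprotein that removes lipid peroxides from membranes, had 9.25 and 8.99 in KI polysomal RNA, against 12.06 and 12.34 in KI total RNA. A second Gpx4 probe gave -0.66, with KI polysomal RNA at 7.74 and 7.68, the bottom of the range.

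Respiratory chain subunits supplied 4 of the 15. Ndufa3 of complex I had 10.49 and 10.30 in KI polysomal RNA, against 13.20 and 13.02 in KI total RNA, and Ndufc1 of the same complex differed by -2.68. Cox6b1 of complex IV had 11.04 and 10.71 in KI polysomal RNA, against 13.56 and 13.37 in KI total RNA, and Cox8a, also of complex IV, differed by -2.67. In all of them the brightest polysomal array stayed more than 2 log2 units below the dimmest total array. The mitochondrial ribosomal protein Mrpl54 differed by -2.77, and Ost4, a very small subunit of the oligosaccharyltransferase that glycosylates proteins in the ER, by -2.79.

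The remaining falls were Tmem134 (-2.89), the small thioredoxin-like protein Sh3bgrl3 (-2.82), Tmem256 (-2.81), the iron-sulfur cluster protein Bola2 (-2.81), the interferon-inducible Ifi27l2a (-2.67), the secreted protein Metrn (-2.63) and the depalmitoylating enzyme Abhd17a (-2.62). Ifi27l2a read 9.70 and 8.70 in KI polysomal RNA, against 12.16 and 11.59 in KI total RNA. It had the largest SE of the 15 falls (SE 0.45, limma adjusted p = 0.0148). That SE includes the WT spread: the cultures differed by -2.45 and -2.89 in KI and by -2.05 and -0.27 in WT. Abhd17a had 10.02 and 10.71 in KI polysomal RNA, against 12.27 and 13.70 in KI total RNA, so its difference was -2.25 in culture 1 and -2.99 in culture 2.

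**Figure D2:**
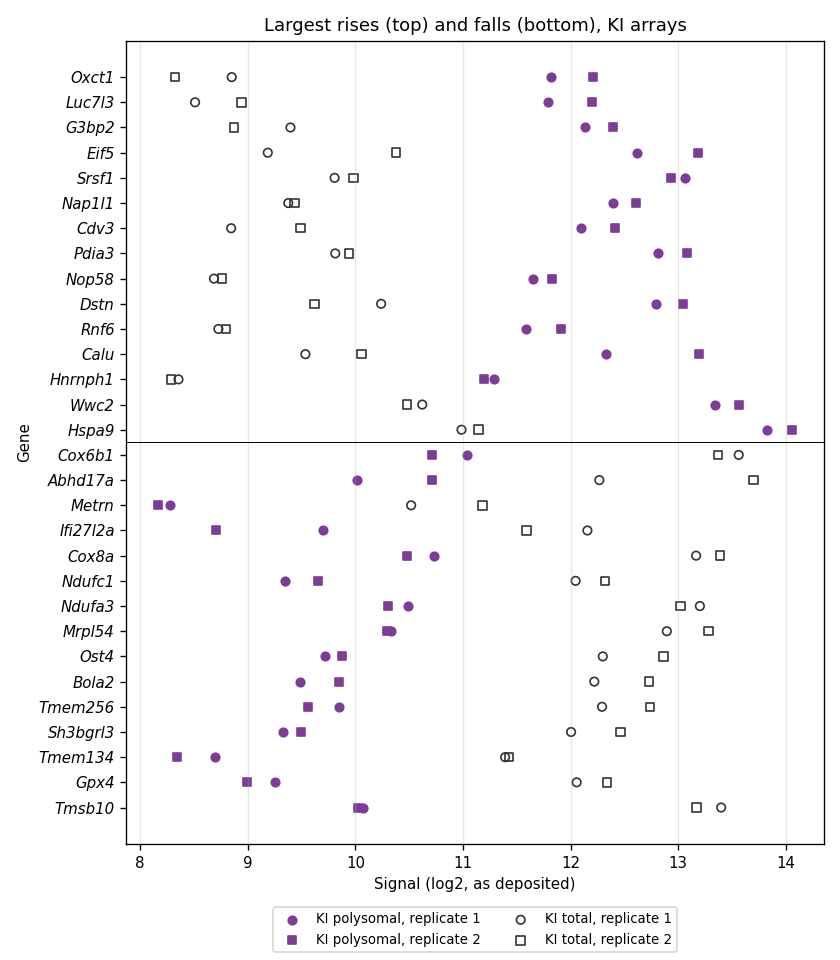
Signal (horizontal, log2 as deposited) on the 4 KI arrays for the 15 genes with the largest rise (above the line) and the 15 with the largest fall (below it). Filled purple symbols are polysomal RNA and open symbols total RNA, circles replicate 1 and squares replicate 2. For the rises, polysomal signal ran from 11.19 to 14.06 and total signal from 8.29 to 11.14. For the falls, polysomal signal ran from 8.17 to 11.04 and total signal from 10.52 to 13.70.

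Translation machinery split by component. Of 32 large-subunit ribosomal proteins measured, 6 were higher in KI polysomal RNA and 13 lower, with a median of -0.36, and of 24 small-subunit proteins 2 were higher and 7 lower, with a median of -0.26, beside a median of 0.02 and shares of 22.3% higher and 17.7% lower over all tested genes. The cultures differed in size here: the large-subunit median was -0.52 in culture 1 and -0.07 in culture 2. Many ribosomal protein genes have near-identical pseudogenes, which a probe may also read.

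Rpl39, a very small large-subunit protein, read 12.39 and 12.51 in KI polysomal RNA, against 14.63 and 14.25 in KI total RNA, a difference of -1.99. Rps27 read 11.75 and 11.92 in KI polysomal RNA, against 14.23 and 13.81 in KI total RNA, a difference of -2.19. Rps27l, its paralogue, differed by -2.42, and Rpl12, Rps15, Rpl34 and Fau, which is made as a fusion with a ubiquitin-like protein, by -1.53, -1.60, -1.36 and -1.29. These arrays did not overlap between RNA types. At the other end Rpl9 read 15.18 and 15.37 in KI polysomal RNA, against 13.86 and 12.84 in KI total RNA. Rpl4 differed by 1.67, Rps24 and Rps3a1 by 1.34 each and Rpl5, which carries 5S RNA into the ribosome, by 1.16. Rps4x (1.59) and Rps6 (1.54), the S6 kinase substrate, did not pass in the fit of all arrays, whose SE includes the WT spread. Their KI total arrays read 13.27 and 12.65 for Rps4x and 12.90 and 11.38 for Rps6. With the KI arrays alone, 4 of the 24 small-subunit proteins were higher, beside 2 in the fit of all arrays. Why Rps4x and Rps6 did not pass was not tested.

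For 14 elongation factors and other TOP mRNAs the median was 0.65, with 0.30 in culture 1 and 1.06 in culture 2. Among them 6 were higher and 0 lower, beside 22.3% and 17.7% of all tested genes. Besides Nap1l1, these were Npm1, a nucleolar chaperone of ribosome assembly (2.44), Hnrnpa1 (2.38, with 0.46 at a second, dim probe), Btf3 (2.02) and Naca (1.32), the subunits of the nascent polypeptide complex that meets the growing chain at the ribosome, and Eif4b (0.39). Npm1 had 14.34 and 14.47 in KI polysomal RNA, against 11.42 and 12.50 in KI total RNA. The elongation factors proper did not pass, with Eef2 at -0.26, Eef1g at 0.22, Eef1b2 at 0.15 and Eef1d at 0.14.

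Of 27 initiation factors and their regulators, 9 were higher and 4 lower, with a median of 0.20, beside 22.3% higher and 17.7% lower over all tested genes. After Eif5, the eIF2 subunits Eif2s3x and Eif2s2, which bring the initiator tRNA, differed by 2.14 and 2.02. The eIF4A helicases Eif4a2 (1.79) and Eif4a1 (1.21), the eIF3 subunits Eif3c (1.72) and Eif3a (0.91), Eif1a (1.82) and the eIF4G relative Eif4g2 (1.47) were also higher. The 4 that were lower included 3 that bear on the cap-binding step: Eif4ebp1 and Eif4ebp2, which sequester eIF4E, and Eif4e2, a cap-binding homologue of it. Eif4ebp1 read 12.72 and 12.12 in KI polysomal RNA, against 13.87 and 13.52 in KI total RNA, a difference of -1.27. Eif4ebp2 differed by -0.61, Eif4e2 by -0.57 and Eif3k by -0.62, and none of the 4 measured eIF2B subunits passed.

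The annotated starts of the ribosomal protein and TOP genes were read next, because a TOP start is the sequence feature by which that class is defined. The motif was a C at the RefSeq start (GRCm38.p6), read on the gene's own strand only, followed by at least 4 bases that are each C or T. Among 32851 promoters it occurred in 2.51%. Of the 70 measured members of the ribosomal protein and TOP lists, 13 had the motif at the annotated start, of which 1 was higher and 7 were lower in KI polysomal RNA (median -0.58), 44 had a promoter without it (10 higher, 12 lower, median -0.08) and 13 had no promoter in the table. Beside these counts stand 22.3% higher and 17.7% lower over all tested genes. The 4 highest and 4 lowest of the 13 members with the motif are shown to let the starts be set beside the differences. Each is 30 bases, from 10 before the start, and capitals mark the pyrimidine run that begins at the start.
Nap1l1 (chr10:111473217-111473246, + strand): gctctcgggtCTTTTTTagcgccatctgct
Rps6 (chr4:86857348-86857377, - strand): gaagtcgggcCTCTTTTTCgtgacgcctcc
Eif3f (chr7:108934405-108934434, + strand): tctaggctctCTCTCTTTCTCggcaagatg
Rpl14 (chr9:120571507-120571536, + strand): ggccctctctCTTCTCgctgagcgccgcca
Rpl35a (chr16:33056472-33056501, + strand): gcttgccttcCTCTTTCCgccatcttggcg
Rpl35 (chr2:39005112-39005141, - strand): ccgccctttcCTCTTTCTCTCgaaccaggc
Fau (chr19:6057937-6057966, + strand): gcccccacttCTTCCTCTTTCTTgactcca
Rps27 (chr3:90213629-90213658, - strand): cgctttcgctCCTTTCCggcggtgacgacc

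From top to bottom their differences were 3.09, 1.54, 0.32, 0.10, -0.94, -0.96, -1.29 and -2.19. The run of pyrimidines was 7 bases in Nap1l1, the highest, and also 7 in Rps27, the lowest, and the longest run, 13 bases in Fau, belonged to a gene that was lower. Across all tested genes with a promoter, 211 with the motif had a median of -0.02 and 7005 without it a median of 0.02. An annotated start can differ from the start used in these cells, and the letters describe the annotation only.

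Genes of oxidative phosphorylation were more often lower than higher in KI polysomal RNA. Of 68 measured, 41 were lower and 6 higher, with a median of -0.81, beside 17.7% lower and 22.3% higher over all tested genes. Split by complex, a division made after the values were seen, complex IV had 9 lower and 0 higher of 11 (median -1.16), complex I had 18 lower and 4 higher of 33 (median -0.80), and ATP synthase had 8 lower and 1 higher of 14 (median -0.56). The higher members included Uqcrc2, a core protein of complex III, with 12.41 and 12.42 in KI polysomal RNA, against 10.91 and 9.71 in KI total RNA, and Atp5pb, the stalk protein of ATP synthase, with 11.14 and 11.35 against 9.41 and 9.03 in KI total RNA. Atp5j2, a small ATP synthase subunit, differed by -2.18, with the cultures close to each other.

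Mitochondrial ribosomal proteins showed both directions. Of 71 measured, 31 were lower and 13 higher, with a median of -0.37, beside 17.7% lower and 22.3% higher over all tested genes. Higher members were thus no more frequent here than among all genes. Mrpl54 (-2.77), Mrpl53 (-2.37) and Mrps21 (-2.06) were at the low end, and Mrpl50 (1.86), Mrpl47 (1.67) and Mrpl1 (1.43) at the high end. Mrps24 read 12.22 and 12.26 in KI polysomal RNA, against 13.88 and 14.22 in KI total RNA. Mrpl50 read 10.09 and 10.52 in KI polysomal RNA, against 8.11 and 8.78 in KI total RNA, so that 2 proteins of the same kind of ribosome lay on opposite sides.

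Histone genes were lower or did not pass, with 2 exceptions. Of 40 measured histone genes 21 were lower and 2 higher, beside 17.7% and 22.3% of all tested genes. Their median was -0.73. The 35 genes of the replication-dependent clusters, whose mRNAs end in a stem-loop in place of a poly(A) tail, had 20 lower and 0 higher. H4c9 had 9.21 and 9.08 in KI polysomal RNA, against 10.95 and 10.96 in KI total RNA. The 2 that were higher both encode the replacement histone H3.3, which is made outside S phase from polyadenylated mRNA: H3f3b read 12.58 and 12.79 in KI polysomal RNA, against 10.26 and 10.86 in KI total RNA, and H3f3a differed by 1.47, with 0.18 at a second, dim probe. Histone genes of a class are nearly identical in sequence, so a probe may read several of them.

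Most passing members of 3 other lists were also lower, beside 17.7% lower and 22.3% higher over all tested genes. Of 11 S100 proteins and thymosins, which bind calcium or actin, 8 were lower and 0 higher, with a median of -0.93. Tmsb4x, the abundant relative of Tmsb10, had 12.14 and 12.17 in KI polysomal RNA, against 13.16 and 13.01 in KI total RNA. Of 16 Sm and LSm proteins, the ring proteins of splicing and decay complexes with some of their partners, 8 were lower and 3 higher, with a median of -0.63. Lsm7 differed by -1.63 and Snrpd2 by -1.56, while Snrpa1, Snrpd3 and Snrpd1 were higher by 1.95, 1.76 and 1.14. Of 16 selenoproteins, which insert selenocysteine at a UGA codon, 7 were lower and 2 higher, with a median of -0.61.

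After Gpx4, the selenoproteins Selenow (-2.33), Selenoh (-2.01) and Gpx1 (-1.87), the cytosolic glutathione peroxidase, fell most. Gpx1 had 12.69 and 12.74 in KI polysomal RNA, against 14.43 and 14.73 in KI total RNA. Selenow had 7.70 and 7.74 in KI polysomal RNA, the bottom of the range, so its difference is understated. Selenos, an ER membrane protein, and Selenoi, a phospholipid enzyme, were higher by 1.41 and 0.97.

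**Figure D3:**
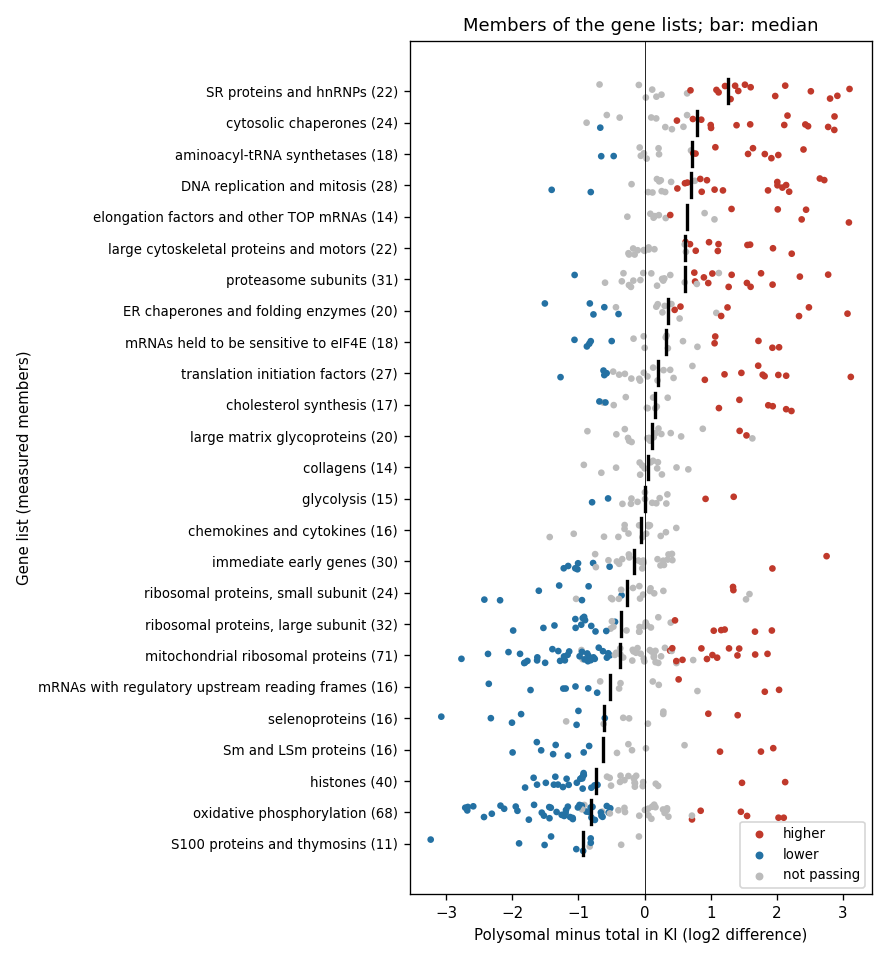
Polysomal minus total difference in KI (horizontal, log2) for each measured member of 25 gene lists with at least 10 measured members, the zinc finger genes left out, ordered by median (black bar), with the number of members in parentheses. Red members were higher in polysomal RNA, blue members lower and grey members did not pass. SR proteins and hnRNPs have the highest median, 1.26, and S100 proteins and thymosins the lowest, -0.93.

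Splicing regulators showed the highest list median. Of 22 SR proteins and hnRNPs measured, 15 were higher and 0 lower, beside 22.3% and 17.7% of all tested genes. Their median was 1.26 in KI cells. Hnrnpa2b1, which packages and carries mRNA, had 11.95 and 11.65 in KI polysomal RNA, against 9.16 and 8.82 in KI total RNA. Tra2a, a splicing activator, differed by 2.52, and Srsf5 by 2.13. The probes of 1 gene did not always give the same size. A second probe gave 1.81 for Srsf5 and 0.58 for Hnrnpa2b1. That Hnrnpa2b1 probe read 7.71 and 7.83 in KI total RNA, near the bottom of the range.

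Chaperones and the enzymes that charge tRNAs had more higher than lower members, beside 22.3% higher and 17.7% lower over all tested genes. Of 24 cytosolic and mitochondrial chaperones, 14 were higher and 1 lower, with a median of 0.80. Among the 8 measured subunits of CCT, the ring that folds actin and tubulin, 5 were higher and 0 lower, with a median of 2.14. Cct4 read 13.35 and 13.67 in KI polysomal RNA, against 10.80 and 11.35 in KI total RNA, and Cct6a, Tcp1 and Cct8 differed by 2.87, 2.78 and 2.16. Hspd1, the mitochondrial Hsp60, differed by 2.47, and its small partner Hspe1 by -0.57 without passing. Of 18 aminoacyl-tRNA synthetases 9 were higher and 2 lower, with a median of 0.72. Rars differed by 2.41 and Lars by 1.92, while Sars (-0.66) and Vars (-0.47) were lower.

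The ER list had members at both ends. Of 20 measured ER chaperones and translocation proteins, 7 were higher and 5 lower, beside 22.3% and 17.7% of all tested genes. Their median was 0.36. Pdia3 was followed by Ssr3 (2.49), a translocon-associated protein, and Hsp90b1 (2.34), the ER Hsp90. The lower members included Sec61b, a small subunit of the translocon, which read 9.87 and 10.06 in KI polysomal RNA, against 11.37 and 11.58 in KI total RNA. Ssr4 and Ssr2, partners of Ssr3 in 1 complex, were lower, at -0.83 and -0.77, so members of that complex lay on opposite sides.

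Proteasome subunits were higher in 13 of 31 cases and lower in 1, beside 22.3% and 17.7% of all tested genes. Their median was 0.61. Within the complex, 4 of 5 alpha ring subunits were higher (median 1.55), led by Psma4 at 2.78, while 1 of 10 beta subunits was higher and 1 lower (median -0.19). The lower one was Psmb10 (-1.06), a subunit of the immunoproteasome. Psmd12, a lid subunit, read 11.94 and 12.22 in KI polysomal RNA, against 9.79 and 9.67 in KI total RNA.

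Genes of DNA replication and mitosis were higher in 16 of 28 cases and lower in 2, beside 22.3% and 17.7% of all tested genes. Their median was 0.70. Anln, which organises the contractile ring, had 12.11 and 11.93 in KI polysomal RNA, against 9.29 and 9.30 in KI total RNA. Mcm4 (2.65) and Mcm6 (2.01) of the replicative helicase, Top2a (2.19), Rrm1 (2.01) of ribonucleotide reductase and the chromatin protein Hmgb2 (2.14) were also higher. The 2 lower genes were Cenpa, the centromeric histone H3 (-1.41), and Birc5, or survivin (-0.81). Cenpa had 13.05 and 11.98 in KI polysomal RNA, against 14.21 and 13.63 in KI total RNA.

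Of 22 large cytoskeletal proteins and motors, 10 were higher and 0 lower, with a median of 0.61, which was 0.39 without KI replicate 2. Ahnak read 11.22 and 12.23 in KI polysomal RNA, against 9.46 and 9.53 in KI total RNA, a difference of 2.23. Its other probe gave -0.12 but read 7.67 to 7.85 on the KI arrays, near the bottom of the range. Kif1b, a kinesin motor, differed by 1.94 and Vcl, or vinculin, by 1.11. Cholesterol synthesis had 6 of 17 higher and 2 lower, beside 22.3% higher and 17.7% lower over all tested genes. Its median was 0.16, which was 0.25 without KI replicate 1 and 0.74 under a stricter filter on dim probes. Hmgcs1 (2.22), the entry enzyme of the pathway, Stard4 (2.14), Sqle (1.94) and Msmo1 (1.87) were among the higher ones, and Srebf2, which encodes the transcription factor of the pathway, was lower, at -0.68.

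Secreted and matrix products were read with and without the WT arrays. In the fit of all 8 arrays, 0 of 14 collagens and 0 of 16 chemokines and cytokines passed, with medians of 0.05 and -0.06, beside 40.0% of all tested genes. In the fit of the KI arrays alone, which called 47.3% of all genes, the collagens Col6a2 and Col7a1 and the chemokines Ccl5, Cxcl16, Cxcl1 and Ccl9 were lower and Ccl7 was higher. Col1a1 had 11.82 and 12.73 in KI polysomal RNA, against 12.52 and 12.89 in KI total RNA, so the RNA types overlapped. Of 20 large matrix glycoproteins 2 were higher in the fit of all arrays, Thbs1 (1.54) and Ltbp1 (1.44), and 0 lower. The shares over all tested genes were 22.3% higher and 17.7% lower. With the KI arrays alone 5 of the 20 were higher and 1 lower, beside 25.2% and 22.1% of all genes. The second probe of Ltbp1 gave -0.10, near the bottom of the range. The chemokine Ccl5 differed by -1.43 and -1.44 in the KI cultures, but by -2.54 and 0.94 in the WT cultures, and Cxcl16 by -1.06 and -1.08 in KI and by -1.56 and 1.10 in WT. Their SE of 0.84 and 0.64 in the fit of all arrays includes that WT spread, and with the KI arrays alone both passed, at limma adjusted p of 0.00189 and 0.00315. In the fit of all arrays glycolysis had 2 higher, Hk2 (1.35) and Pfkp (0.92), and 2 lower, Eno2 (-0.79) and Aldoa (-0.55), of 15. Over all tested genes 22.3% were higher and 17.7% lower.

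Genes under special translational or other post-transcriptional control split by member. Of 16 genes listed as mRNAs with regulatory upstream reading frames, 7 were lower and 3 higher, beside 17.7% and 22.3% of all tested genes. Their median was -0.53. Such frames can hold ribosomes back from the main frame. The list also held Oaz1 and Oaz2, antizymes whose synthesis needs a ribosomal frameshift, and both were lower. Oaz1 read 11.05 and 11.25 in KI polysomal RNA, against 13.20 and 13.82 in KI total RNA, and Oaz2 differed by -1.05. The stress factors Atf5 and Atf4 were lower, at -1.73 and -0.85, Cebpb by -1.23 and Ppp1r15a, the phosphatase subunit that acts on eIF2, by -0.72. Mdm2, the ubiquitin ligase of p53, was the highest, with 11.77 and 10.27 in KI polysomal RNA, against 9.56 and 8.41 in KI total RNA. Of the 3 measured mRNAs with iron-responsive elements, Tfrc, the transferrin receptor, was higher by 1.84, and Fth1, ferritin heavy chain, and the iron transporter Slc11a2 were lower, at -0.64 and -0.83.

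Among mRNAs thought to depend strongly on eIF4E, 18 were measured, of which 5 were higher and 5 lower in KI polysomal RNA, beside 22.3% and 17.7% of all tested genes. Their median was 0.33, and it was 0.17 without KI replicate 1 and 0.11 with the mean of all probes of a gene. Mdm2 (2.04), the survival factor Mcl1 (1.94), Birc2 (1.72), Hif1a (1.07) and Rrm2 (1.06) were higher, and Ccnd3 (-1.06), Tgfb1 (-0.87), Bcl2l1 (-0.84), Birc5 (-0.81) and Ccne1 (-0.50) were lower. Mcl1 had 11.47 and 11.39 in KI polysomal RNA, against 9.58 and 9.41 in KI total RNA. Ccnd1, or cyclin D1, had 12.82 and 12.13 in KI polysomal RNA, against 12.57 and 11.74 in KI total RNA, and did not pass. Myc differed by -0.01 but was read near the bottom of the range. Among 30 immediate early genes 7 were lower, led by Junb (-1.22), and 2 were higher, Klf6 (2.76) and Mcl1. The 164 measured zinc finger protein genes named Zfp had 30 higher and 22 lower, with a median of 0.12. Beside both of these lists stand the 22.3% higher and 17.7% lower over all tested genes.

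The study's own 6 targets (Birc2, Ccl2, Ccl7, Mmp3, Nfkbia and Vegfc) had been picked from these samples, so their values are no independent evidence. In KI cells 1 of the 6 passed in the fit of all arrays and 3 (Birc2, Ccl7 and Mmp3) with the KI arrays alone. The gene that passed both was Birc2, an inhibitor of apoptosis, which read 9.26 and 11.34 in KI polysomal RNA, against 7.89 and 9.26 in KI total RNA. Its difference was 1.72 (SE 0.29, limma adjusted p = 0.0145), and 2 other probes gave 0.62 and 0.86. The probe that gave 0.62 read 7.69 and 7.66 in KI total RNA, the bottom of the range. In the WT cultures Birc2 differed by 2.65 and 3.52. Its limma test of KI minus WT (-1.36) gave an unadjusted p of 0.0247 and an adjusted p of 0.9997. The chemokine Ccl2 read 8.97 and 8.92 in KI polysomal RNA, against 8.66 and 8.59 in KI total RNA, and Ccl7 9.29 and 9.04 against 8.76 and 8.60 in KI total RNA. Their small differences, 0.32 and 0.48, carried SE of 0.79 and 1.06 in a fit that shares its spread with the WT arrays, and 0.11 each with the KI arrays alone. In WT cells Ccl2 read 11.63 and 11.47 in polysomal RNA, against 11.64 and 8.21 in total RNA, and the median difference of the 6 targets was 0.37 in WT culture 1 and 3.39 in WT culture 2.

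Among RNAs that are not translated, few were measured. The small nuclear RNA Rnu6 (U6) read 10.33 and 11.62 in KI polysomal RNA, against 12.77 and 13.57 in KI total RNA, a difference of -2.20. The small nucleolar RNA Snora65 differed by -1.36. The long noncoding RNAs Tug1 (0.29) and Snhg11 (0.02) did not pass.

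The difference followed the span of the gene on the genome, a comparison added after the data were seen. Among 619 genes spanning up to 3 kb, 1.94% were higher in KI polysomal RNA and 36.8% lower, with a median of -0.33. The median was -0.23 from 3 to 10 kb, 0.00 from 10 to 30 kb and 0.21 from 30 to 100 kb. Among 943 genes over 100 kb, 33.3% were higher and 4.98% lower, with a median of 0.24, and Spearman's rho over 8826 genes was 0.40, across genes that are not independent replicates. The 15 largest falls had spans between 0.694 and 9.81 kb (median 2.48 kb), and the 15 largest rises between 7.26 and 164.5 kb (median 25.3 kb), beside a median of 20.7 kb over all tested genes.

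The order of the lists did not simply follow span. SR proteins and hnRNPs, with the highest list median, had a median span of 10.99 kb, and collagens, with no gene passing, one of 48.3 kb. Span includes introns and stands in only loosely for the length of the mRNA or of its reading frame, neither of which was analysed here. The median KI signal was 8.72 in the class up to 3 kb and 8.16 over 100 kb, and the part of signal level in the trend was not tested. The base composition of promoters showed no such order: over 7216 genes, rho with GC content was 0.01.

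**Figure D4:**
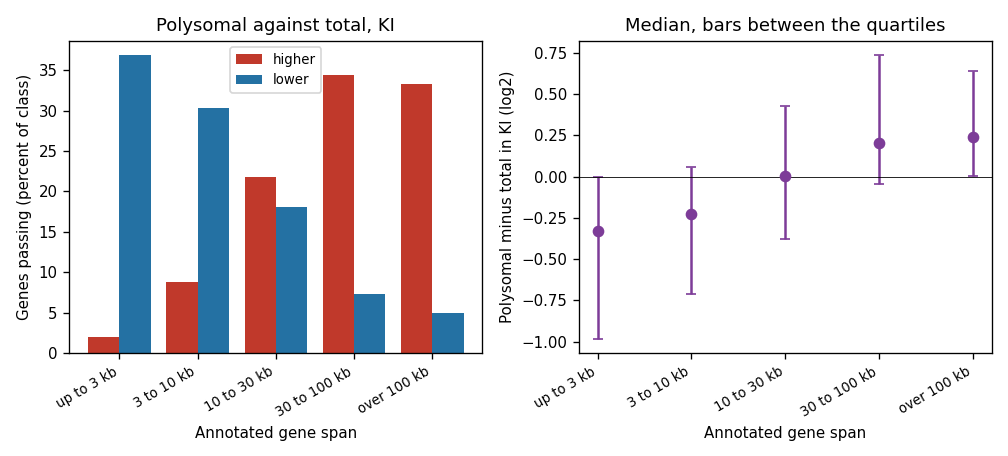
Left, the percent of genes in each class of annotated gene span (kb) that were higher (red) or lower (blue) in KI polysomal RNA. Right, the median polysomal minus total difference in KI (log2) with bars between the quartiles. The share of lower genes falls from 36.8% in the class up to 3 kb to 4.98% over 100 kb.

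The same separation of RNA types was measured in the WT line. There 1954 genes were higher in polysomal RNA (22.1%) and 1652 lower (18.7%). Of the KI calls 2977 were called the same way in WT, which is 84.3% of the KI calls and 82.6% of the WT calls, and 0 were called the opposite way. Both calls came from 1 fit in which a gene has the same SE in both lines, so the overlap of calls is not independent evidence. KI and WT differences, which share no array, correlated across genes at 0.947 (Pearson) and 0.931 (Spearman). All 15 of the largest KI rises and 14 of the 15 largest KI falls had the same call in WT. The exception was Ifi27l2a, at -2.67 in KI and -1.16 in WT, where the cultures gave -2.05 and -0.27.

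The KI difference was then tested against the WT difference. With limma, 0 of 8832 genes passed for KI minus WT (0%), and 269 (3.05%) had an unadjusted p below 0.05. The smallest adjusted p was 0.9997. A p above the threshold does not show that the lines load mRNAs alike. Leaving out a WT replicate left a single WT pair, which was then assumed to vary like the KI pairs. Such fits are not read as a test of the lines.

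The 5 genes with the smallest p are given as values only. Serpinb2, a serpin that inhibits plasminogen activators, had 10.80 and 11.78 in KI polysomal RNA and 8.41 and 8.95 in KI total RNA, a difference of 2.61 in KI and 0.78 in WT. Zfhx3, a transcription factor, differed by 1.65 in KI and 0.56 in WT, and Nop10, a small H/ACA snoRNP protein, by -1.40 in KI and -2.46 in WT, while a second Nop10 probe at the bottom of the range gave -0.03 in KI. Eif2s3y, the Y-linked copy of the eIF2 gamma subunit, differed by 1.38 in KI and 0.02 in WT, where all 4 arrays were at the bottom of the range and the line has no measurable level. Hoxb2 was at the bottom of the range on all KI arrays, so that its difference of -0.01 in KI beside -1.10 in WT compares a measured level with none.

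**Figure D5:**
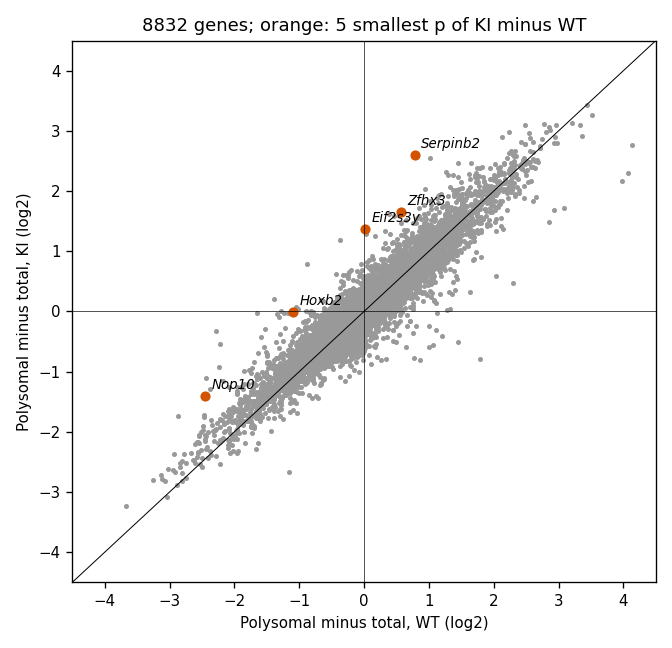
Polysomal minus total difference of 8832 genes in KI (vertical, log2) and in WT (horizontal, log2) with the line of equality. Orange points are the 5 genes with the smallest p for KI minus WT, none of which passed after adjustment. The cloud lies along the line, with Serpinb2 at 2.61 in KI and 0.78 in WT.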

How the data were processed

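The deposited values, taken here as log2 signal from their range, were processed by the authors; per the submitters' processing notes the R package lumi was used; the sources used here give neither its options nor the log base, background correction or normalization. A second deposited table held the same values (equal within 1e-06) in 8 columns that no label names, and these were not used. Probes were named from the platform annotation (1719 of 25697 had no symbol) and 23962 were matched by gene ID to RefSeq on GRCm38.p6. Probes with a mean over 8 arrays above the median of the probe means, 7.73, were kept, and the brightest probe stood for a gene. limma 3.58.1 in R 4.3.3 fitted all 8 arrays with the culture as a replicate block and the polysomal effect in each line (lmFit, eBayes, 2 residual and 2.37 prior degrees of freedom), with two-sided p-values adjusted by the Benjamini-Hochberg method over 8832 genes. The pairing comes from source names shared by total and polysomal RNA of 1 culture; across genes, deviations from the group mean correlated at 0.58 (KI) and 0.05 (WT). The fit was tested on simulated data. The number of arrays limits the precision. Named were the 15 largest rises and falls among passing genes whose arrays did not overlap, in each list the 4 members with the smallest p, the targets of the study, Eif4e and the 5 smallest p of KI minus WT; any further gene was picked with its values in view. The members and gene lists were chosen with earlier results of these data known. Alternatives changed the block, filter, normalization, probe choice, variance trend and replicates.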

Additional observations from a re-analysis of the deposited data

Results flagged for a closer look

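In 3 cases both KI cultures moved 1 way and both WT cultures the other way. The median of the collagens was 0.05 in KI (0.0471; 0.06 and 0.09 in the cultures), against -0.30 in WT (-0.13 and -0.47). This difference was not tested. Col4a1, a basement membrane collagen, differed by 0.48 in KI (0.4840), against -0.32 in WT, and the test of KI minus WT gave an unadjusted p of 0.0662 and a limma adjusted p of 0.9997. Nfkbia, the inhibitor of NF-kappaB, differed by -0.16 in KI (-0.1573), against 0.71 in WT, with an unadjusted p of 0.00813 and the same adjusted p. Neither gene passed in KI.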

How the results depend on the processing

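Of the 3530 KI genes that passed, all but 3 of those tested had the same sign with the mean of all probes of a gene. Without the filter on dim probes 2313 of 16593 genes passed in KI and 2232 in WT, against 3530 and 3606 of 8832. With no replicate block 3278 passed in KI, 2987 of them among the 3530. Leaving out 1 replicate, the KI count ranged from 0 to 4176, the WT count from 2000 to 3624, the KI minus WT count from 0 to 37, and the named genes that passed from 0 to 125 of 135 (117 with all replicates). A line that lost a replicate kept a single pair and no spread of its own, so the KI minus WT counts carry that limit. The median of collagens turned to -0.0259 with the mean of all probes, against 0.0471 reported. That of zinc finger protein genes turned to -0.0928 under the stricter filter, against 0.1242. The cause was not tested. Without the filter the gene span medians shrank to -0.01, -0.02, 0.00, 0.03 and 0.02 from the smallest to the widest class, with no strict order, and under the stricter filter they were -0.90 up to 3 kb and 0.67 over 100 kb. The planned comparison by protein length was not run, since no protein table was at hand. Signal near the bottom of the range limits folds.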
